A study of Mus musculus with 12 samples.

Results

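Regulatory T cells lacking Coro1a (KO) were compared with wild-type (WT) regulatory T cells, both from mice, over all genes counted. The comparison used the 3 KO and the 3 WT regulatory libraries, 6 of the 12 libraries of the series, chosen by their labelled cell type and genotype. The other 6 libraries came from conventional T cells, again 3 per genotype, and served only to ask where the effect in regulatory cells differed. Polyadenylated RNA was sequenced with a stranded kit. The labels name the cell types only as murine regulatory and murine conventional T cells, and the genotypes as WT and a Coronin1A knockout. Strain, age, sex, organ, the sort of the cells and the allele are not given in the sources used here. The labels do not say whether the 3 libraries of a group came from different animals. Each p-value is therefore relative to the variation among these libraries, which may be technical.

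Coro1a encodes coronin 1, a WD-repeat protein of leukocytes that binds filamentous actin and has been linked to calcium and cyclic AMP signalling and to the survival of naive T cells in the periphery. Regulatory T cells are CD4 T cells that depend on the transcription factor Foxp3 and restrain other immune cells. A resting form resembles naive T cells and recirculates through lymphoid organs, and an effector form carries receptors for tissues and inflammation.

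Reads assigned to genes numbered 19686870 in WT replicate 1, 31476868 and 31673231 in the other WT libraries, and 32343852 to 33404302 in the KO libraries. The labelled cell type was checked in CPM, a gene's count scaled to its library's total of gene counts. Foxp3 lay between 478 and 545 CPM in WT against between 438 and 638 CPM in KO regulatory libraries, against 20.1 to 25.98 CPM in WT against 31.6 to 72.9 CPM in KO conventional libraries. Il2ra, Ctla4 and Ikzf2 were likewise higher in every regulatory than in every conventional library. The regulatory libraries of both genotypes also held B cell and red cell transcripts. Ms4a1, a B cell surface protein gene singled out with its values known, measured 668 to 969 CPM in WT against 693 to 886 CPM in KO regulatory libraries, at most 0.153 CPM in WT conventional libraries and at most 4.29 CPM in KO conventional ones. The beta globin Hbb-bs measured 2333 to 4494 and 2620 to 3466 CPM. Cd3e was lower in regulatory libraries, at 160 to 319 CPM over both genotypes, than in WT conventional libraries at 482 to 499 CPM. In such a mixture, fewer cells of a type and less RNA per cell cannot be told apart. WT replicate 3 and KO replicate 1 held both Xist and Y-linked transcripts, with Xist at 752 and 562 CPM, while the other 4 regulatory libraries held at most 1.49 CPM of Xist. The Y-linked genes Ddx3y, Eif2s3y, Kdm5d and Uty summed to 19.8 and 59.7 CPM in these 2 libraries. They summed to 283 to 300 CPM in the other 4, so sex-linked transcripts differed within each group.

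A set of 6 T cell genes (Lat, Cd6, Cd5 and the CD3 chains Cd3d, Cd3e and Cd3g) summed to 2274, 2171 and 1657 CPM in WT replicates 1 to 3 and to 1057, 1636 and 1632 CPM in KO. Every KO library was below every WT library, and KO replicate 1 was the lowest (exact permutation test, two-sided, p = 0.1, the smallest that 3 against 3 libraries allow). B cell markers, 18 of 18 with counts, summed to 15086 to 18732 CPM in WT against 17121 to 18736 CPM in KO. Neutrophil markers, 14 of 14 with counts, summed to 64.9 to 121 CPM in WT against 129.9 to 315 CPM in KO, and NK cell markers, 11 of 11, to 54.7 to 86.2 CPM and 96.3 to 103 CPM. Plasma cell markers, 8 of 8 with counts, summed to 554 to 1853 CPM in KO against 2157 to 8591 CPM in WT, and 1 of the 8 had a positive log2 fold change. The share of gene counts from the mitochondrial genome was 7.28 ± 1.4% in WT and 5.85 ± 1.01% in KO (SD, n = 3). The part that these shifts play in the results below was not tested.

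**Figure D1:**
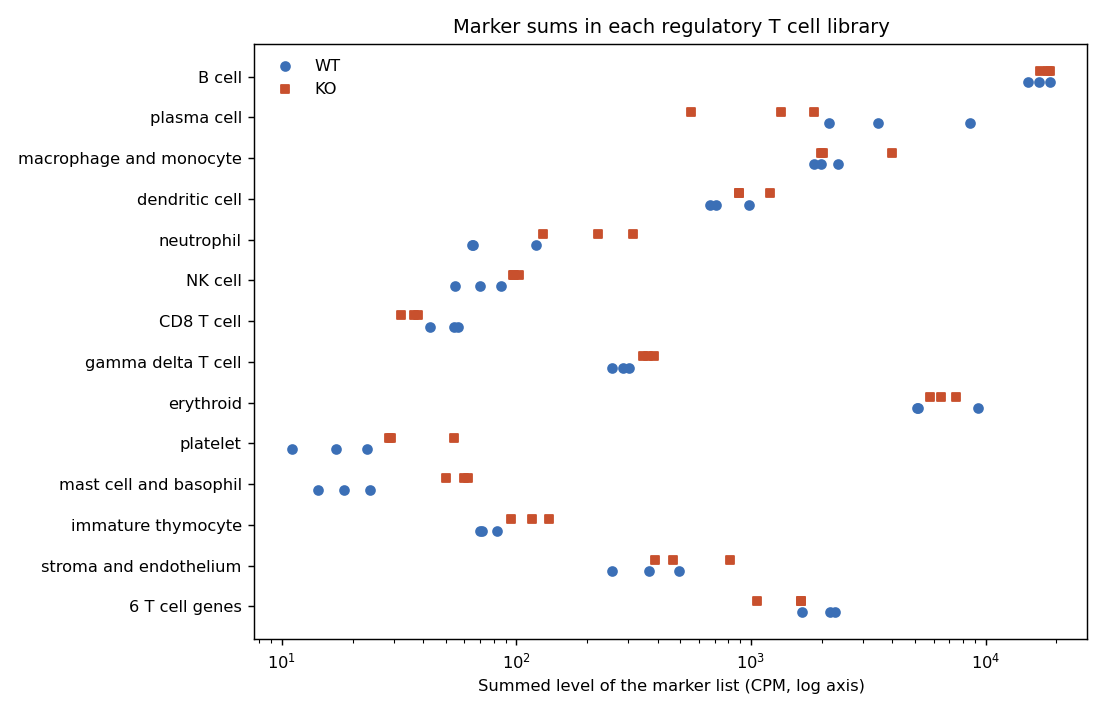
Summed level of each marker list in CPM (log axis) for the 3 WT (circles) and 3 KO (squares) regulatory libraries. The neutrophil, NK cell, platelet, mast cell, gamma delta and thymocyte sums of all KO libraries lie above all WT libraries, the plasma cell, CD8 and T cell sums lie below, and B cell and erythroid sums overlap.

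The deleted gene checked the labels. Coro1a (ENSMUSG00000030707, GRCm38 chromosome 7, 126699773 to 126707787) measured 2656, 2436 and 2276 CPM in WT against 20.4, 28.4 and 29.9 CPM in KO regulatory libraries. The Xist, summed and Coro1a values above, and levels in regulatory libraries from here on, are CPM after TMM scaling of these 6 libraries. TMM is a correction for differences in library composition. Levels in conventional libraries are scaled to library totals unless stated. The KO libraries retained 1.07% of the WT mean, a log2 change of -6.55 (SE 0.19, adjusted p = 3.73e-05 by edgeR's quasi-likelihood test with Benjamini-Hochberg adjustment, as for every adjusted p below). Of the coronin family, 5 other genes were tested and 0 passed by edgeR (median log2 fold change 0.19), with 3 at an unadjusted p under 0.05 and 1 called higher by DESeq2. Coro1b, another actin-binding coronin, measured 334 ± 14.4 CPM in WT against 385 ± 33.3 CPM in KO (SD, n = 3), with an adjusted p of 0.233. Coro2b measured 6.20 ± 1.14 and 12.1 ± 2.96 CPM (SD, n = 3), with an adjusted p of 0.0781.

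The question was which transcripts change in regulatory T cells without Coro1a. Of 15046 genes tested, 313 (2.08%) passed an adjusted p of 0.05. Of these, 228 (1.52%) were higher and 85 (0.565%) lower in KO, and 154 and 20 of them at least 2-fold. The median log2 fold change of all genes tested was 0.01. At an unadjusted p under 0.05 there were 3003 genes, and 26.8% of all genes tested had groups that did not overlap. The 2.08% called is the background for the counts of gene lists below. Among called genes with at least 5 CPM in the higher group and counts in both groups, passing over receptor segments and predicted genes, the largest rises were those of Vipr2, Kcnk1 and Ccl22, and the largest falls after Coro1a those of Ehd3 and Vipr1.

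Individual libraries weighed heavily on these counts. Without WT replicate 1, 0 genes were higher and 1, Coro1a, was lower by edgeR. The counts were 46 and 14 without WT replicate 2, 209 and 133 without WT replicate 3, 164 and 33 without KO replicate 1, 51 and 7 without KO replicate 2, and 12 and 4 without KO replicate 3. Leaving out WT replicate 3 and KO replicate 1, the 2 libraries that held Xist together with Y-linked reads, gave 669 higher and 369 lower genes, with 294 of the 313 called again in the same direction. DESeq2 called 720 and 516. Scaling to the 6 T cell genes moved the median of all genes to 0.53 and gave 514 higher and 17 lower genes, so that 96.8% of calls were higher, against 72.8% under TMM. Directions below are under TMM scaling.

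**Figure D2:**
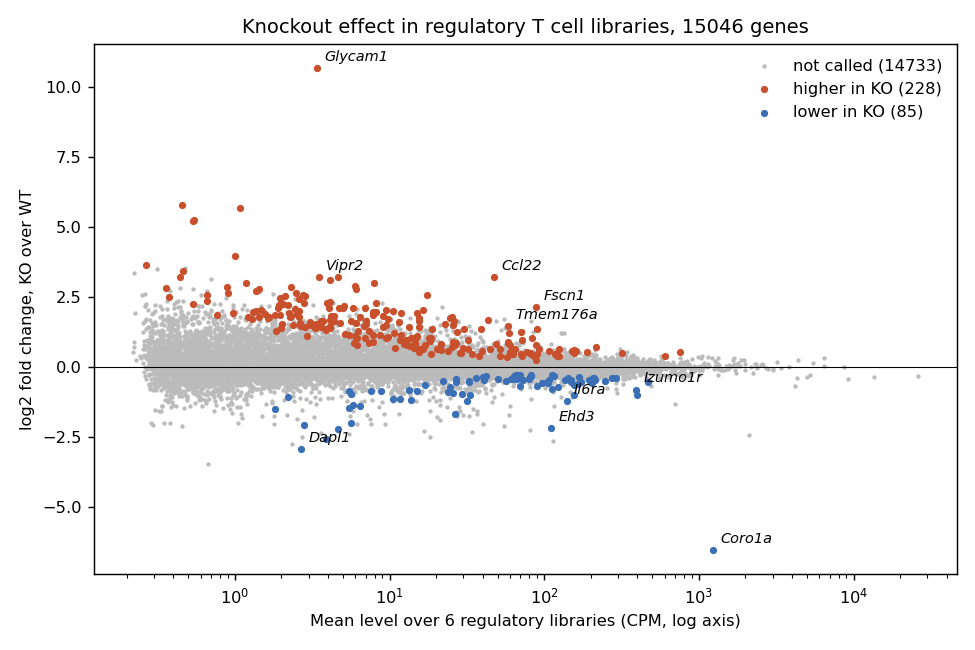
log2 fold change (KO over WT) against mean level in CPM (log axis) for each gene tested in the 6 regulatory libraries. The 228 higher genes reach up over the low and middle levels, and Coro1a stands alone at -6.55.

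Receptors for vasoactive intestinal peptide, which raise cyclic AMP through stimulatory G proteins, moved in opposite directions. Vipr2 measured 0.318, 0.818 and 0.824 CPM in WT against 5.91, 5.80 and 7.25 CPM in KO. The KO mean was 9.28-fold higher, a log2 change of 3.21 (SE 0.33, adjusted p = 0.0105). Vipr1 measured 8.17, 9.82 and 6.28 CPM in WT against 3.54, 2.47 and 2.70 CPM in KO. It fell by 1.48 on the log2 scale (SE 0.23, adjusted p = 0.0319). With scaling to the 6 T cell genes its log2 change was -0.88 and the call was lost (adjusted p = 0.156). In both cases the groups did not overlap, and every KO library lay on the same side of every WT library. Vipr1 averaged 8.09 CPM in WT regulatory libraries against 272.5 CPM in WT conventional ones, where Vipr2 averaged 0.261 CPM. Whether conventional T cells in the mixture supply part of the Vipr1 level was not tested.

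Among 38 tested genes of cyclic AMP and protein kinase A signalling, 3 were higher and 1 was lower (10.5%, against 2.08% of all genes tested). Their median log2 fold change was 0.13. The other 2 called genes encode phosphodiesterases, which break down cyclic nucleotides. Pde7b, specific for cyclic AMP, measured 0.954, 0.881 and 1.2 CPM in WT against 3.41, 3.87 and 3.48 CPM in KO (log2 fold change 1.81, SE 0.22, adjusted p = 0.0147). Pde5a, specific for cyclic GMP, rose from 3.37 ± 0.649 to 7.48 ± 0.644 CPM (SD, n = 3, adjusted p = 0.0367). Of 25 CREB genes and targets, 1 was higher (Nr4a3) and none lower (4%), with a median of 0.10. Of 37 genes of calcium, calcineurin and NFAT, 1 was lower and none higher (2.7%). That gene was Rcan3, a regulator of calcineurin, at 66.6 ± 8.19 CPM in WT against 46.3 ± 2.0 CPM in KO (SD, n = 3, adjusted p = 0.0435). Its log2 fold change of -0.52 became 0.01 with scaling to the T cell genes.

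**Figure D3:**
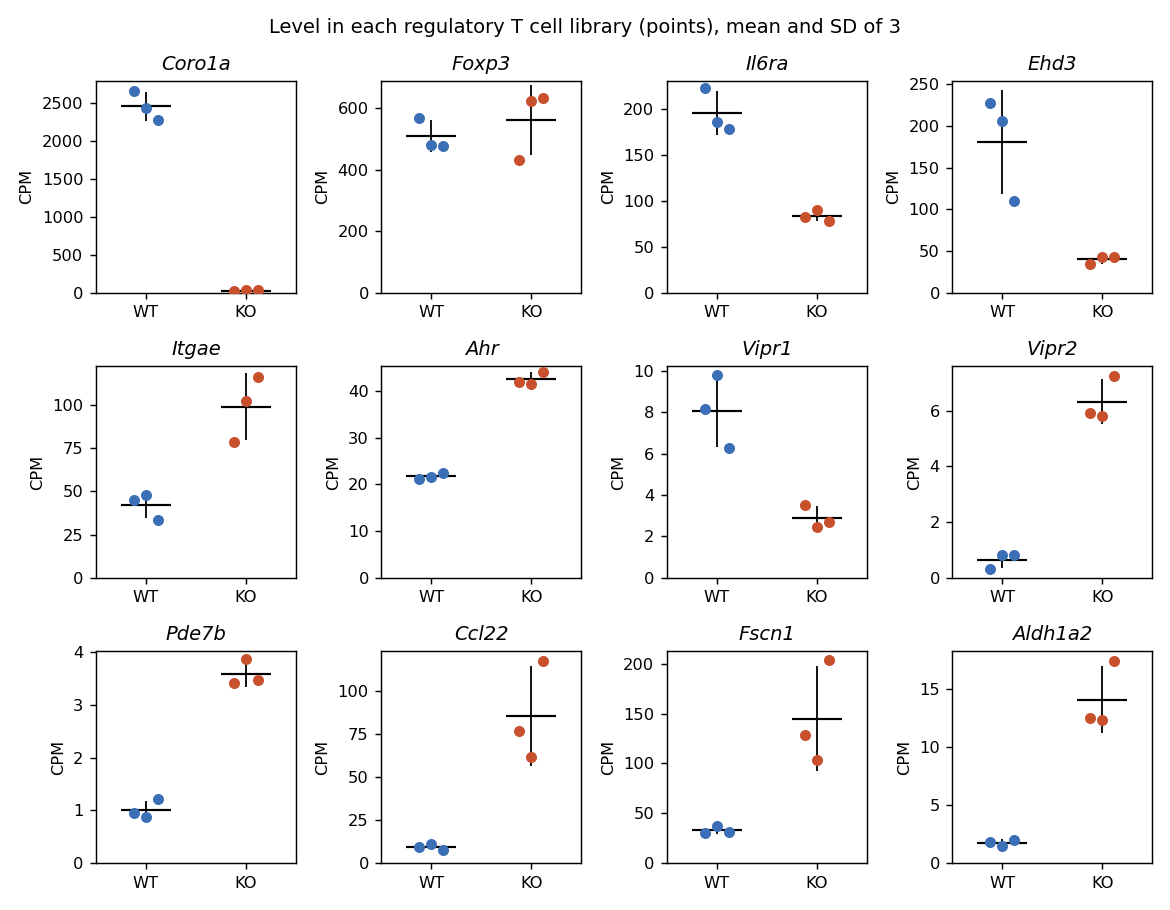
CPM in each of the 3 WT and 3 KO regulatory libraries (points), with the mean (line) and SD (bar), for 12 genes on separate linear axes from 0. In 11 genes no KO library overlaps a WT library, and Foxp3 overlaps. Those 11 are called genes, and all 313 called genes had no overlap, as had 26.8% of all genes tested.

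Some genes of naive and resting T cells fell. Of 28 tested, 5 were lower and none higher (17.9%, against 2.08% of all genes tested). Their median log2 fold change was -0.27, which turned to 0.26 with scaling to the T cell genes, where 1 was called lower. The count of lower genes was 0 without WT replicate 1, 1 without WT replicate 2, KO replicate 2 or KO replicate 3, 2 without KO replicate 1, and 10 without the 2 libraries with Xist and Y-linked reads. The sum of the 6 T cell genes was lower in the same KO libraries, as given above. Il6ra, the alpha chain of the interleukin-6 receptor, measured 223, 186 and 178 CPM in WT against 82.1, 90.0 and 78.6 CPM in KO. It fell by 1.23 on the log2 scale (SE 0.10, adjusted p = 0.00799). The WT libraries were all at least as high as 178 CPM while none of the KO libraries passed 90.0 CPM. With scaling to the 6 T cell genes Il6ra kept its direction and lost its call. Dapl1, a marker of resting T cells, measured 5.30, 6.76 and 2.19 CPM in WT against 0.457, 0.536 and 0.839 CPM in KO, a log2 change of -2.95 (SE 0.47, adjusted p = 0.0337). WT replicate 3 was the lowest of the WT libraries in both genes. Klf3, a transcription factor of the Kruppel-like family, fell from 230 ± 8.59 to 163 ± 14.8 CPM (SD, n = 3), and that direction turned with the T cell scaling. Tdrp and the laminin-binding integrin chain Itga6 fell by 0.85 and 0.60 on the log2 scale, and both calls were lost with the T cell scaling.

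Ehd3 encodes an ATPase of endosomal membrane recycling. It measured 227, 206 and 110 CPM in WT against 34.0, 42.8 and 43.0 CPM in KO, a log2 change of -2.18 (SE 0.26, adjusted p = 0.0151). WT replicate 3 was again below the other WT libraries and still above every KO library. The actin regulator Rflnb fell by 1.23, the phosphatase Ppm1j by 1.19, the synaptic vesicle protein gene Syp by 1.15, the membrane protein gene Ms4a4b by 0.99, the carbonic anhydrase Car12 by 0.97 and the transporter Slc35g1 by 0.91 on the log2 scale. The proprotein convertase Pcsk4 fell by 0.88 and the dynein chain Dnah7a by 0.86. Of the genes in this paragraph, only Ehd3 kept its call with scaling to the T cell genes.

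Of 32 tested genes of regulatory T cell identity, 2 were higher and 1 was lower (9.38%, against 2.08% of all genes tested), with a median log2 fold change of 0.06. None was called without WT replicate 1, WT replicate 2, KO replicate 2 or KO replicate 3, each left out alone. Foxp3 measured 569, 481 and 477 CPM in WT against 432, 625 and 633 CPM in KO (log2 fold change 0.15, adjusted p = 0.635). KO replicate 1, the library with the lowest sum of T cell genes, held the lowest Foxp3 of all 6, and the groups overlapped. Il2ra, the interleukin-2 receptor alpha chain, had a log2 change of -0.18 (adjusted p = 0.451), the inhibitory receptor gene Ctla4 of -0.28 (adjusted p = 0.356) and the transcription factor Ikzf2 of 0.06 (adjusted p = 0.791). Cd4 and Cd3e stood at -0.23 and -0.38, with adjusted p-values of 0.433 and 0.346. With scaling to the T cell genes Il2ra, Ctla4, Cd4 and Cd3e turned positive. Cd3e is itself among the 6 scaling genes, so its value there was set in part by the scaling. Il2ra, Ctla4 and Cd4 have no direction that holds under both scalings.

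Within that list Itgae rose. It encodes the CD103 integrin chain that binds E-cadherin on epithelium. It measured 45.0, 47.9 and 33.4 CPM in WT against 78.5, 102 and 116 CPM in KO, a log2 change of 1.24 (SE 0.18, adjusted p = 0.0248). Izumo1r, the folate receptor 4 gene, measured 554, 521 and 437 CPM in WT against 246, 296 and 316 CPM in KO. It fell by 0.82 on the log2 scale (SE 0.12, adjusted p = 0.0294), and the call was lost with scaling to the T cell genes. Nr4a3, a nuclear receptor induced by antigen receptor signals, rose from 23.6 ± 1.16 to 33.5 ± 1.95 CPM (SD, n = 3, adjusted p = 0.033).

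Of 27 tested genes of effector regulatory T cells, 2 were higher (Itgae and Ebi3, a subunit of interleukin-27 and interleukin-35) and none was lower. The log2 fold change was positive in 26 of 27, with a median of 0.44, against 7768 of 15046 and a median of 0.01 over all genes tested. None was called without WT replicate 1, WT replicate 2, KO replicate 2 or KO replicate 3, each left out alone, while 5 were higher without KO replicate 1 and 13 were higher and 1 lower without the 2 libraries with Xist and Y-linked reads. Ebi3 rose from 16.9 ± 1.18 to 25.9 ± 1.69 CPM (SD, n = 3, adjusted p = 0.0303). Of 40 effector and memory genes, 2 were higher and none lower (5%), with a median of 0.31. Gzma, a cytotoxic granule protease of killer cells, measured 11.8, 13.3 and 10.1 CPM in WT against 28.7, 34.2 and 38.4 CPM in KO (log2 fold change 1.52, SE 0.15, adjusted p = 0.00954). Anxa2, a phospholipid-binding annexin, rose from 54.8 ± 2.67 to 111 ± 19.6 CPM (SD, n = 3). NK cell markers, to which Gzma also belongs, had 2 of 11 genes higher and none lower, and their summed levels are given above. The other called NK marker, Klra4, belongs to a family of near-identical genes and its level is uncertain.

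Of 43 T cell receptor signalling genes, 1 was higher and none was lower, with a median log2 fold change of -0.23, which was 0.29 with scaling to the T cell genes. Leaving out any 1 library gave 0 higher and at most 2 lower genes, and leaving out the 2 libraries with Xist and Y-linked reads gave 2 higher and 15 lower. The single gene was Dok1, an adaptor that dampens kinase signals, at 45.0 ± 1.08 CPM in WT against 58.3 ± 3.48 CPM in KO (SD, n = 3, adjusted p = 0.040). Among 36 immediate early and activation genes, 2 were higher and 1 was lower (8.33%), with a median of 0.07. Bhlhe40, a transcription factor of activated T cells, rose by 0.76 on the log2 scale, Nr4a3 by 0.51, and the zinc finger factor Klf6 fell by 0.54. The Klf6 call was lost with the T cell scaling.

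Among 30 costimulatory and inhibitory receptors and ligands, 1 was higher and 2 were lower (10%), with a median of -0.13 (0.40 with the T cell scaling). Both lower genes belong to the SLAM family of homotypic lymphocyte receptors. Slamf6 measured 184, 202 and 185 CPM in WT against 116, 118 and 129 CPM in KO (log2 fold change -0.66, SE 0.07, adjusted p = 0.0115). With the T cell scaling its log2 change was -0.13 and the call was lost (adjusted p = 0.661). Cd84 fell by 0.31 under TMM, and that direction turned with the T cell scaling. The ligand gene Cd80 rose from 5.53 ± 0.654 to 10.1 ± 0.372 CPM (SD, n = 3, adjusted p = 0.0351).

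Of 26 tested genes of helper subsets, 2 were higher and none lower (7.69%), with a median of 0.40. Leaving out 1 library gave 0 (without WT replicate 1) to 6 (without KO replicate 1) higher genes, and leaving out the 2 libraries with Xist and Y-linked reads gave 11 higher and 2 lower. Ahr, the ligand-activated aryl hydrocarbon receptor, measured 21.2, 21.7 and 22.4 CPM in WT against 42.0, 41.5 and 44.2 CPM in KO. Its log2 fold change was 0.97 (SE 0.07, adjusted p = 0.00494), and both groups were tight. Il1r1, the signalling receptor for interleukin-1, measured 2.86, 4.53 and 3.74 CPM in WT against 12.7, 14.3 and 18.6 CPM in KO (log2 fold change 2.02, SE 0.22, adjusted p = 0.0134). The decoy receptor Il1r2 and the antagonist Il1rn, singled out after their values were seen, rose by 1.73 and 1.30 on the log2 scale, to 23.7 ± 6.5 and 5.57 ± 1.07 CPM (SD, n = 3). Il9r, the interleukin-9 receptor, rose from 35.9 ± 3.45 to 82.4 ± 9.96 CPM (SD, n = 3, adjusted p = 0.00954).

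Several of the genes called higher are known from activated and migratory dendritic cells. They were picked from the called genes after the values were seen, so their shared direction was set by that choice. Ccl22, a chemokine that attracts Ccr4-bearing cells including regulatory T cells, measured 9.23, 11.1 and 7.39 CPM in WT against 76.7, 61.7 and 117 CPM in KO. The KO mean was 9.22-fold higher, a log2 change of 3.21 (SE 0.27, adjusted p = 0.00838). Fscn1, an actin-bundling protein of mature dendritic cells, measured 30.4, 37.1 and 30.6 CPM in WT against 128, 103 and 204 CPM in KO (log2 fold change 2.15, SE 0.25, adjusted p = 0.0144). KO replicate 3 was the highest and KO replicate 2 the lowest KO library in both genes. Aldh1a2, which makes retinoic acid from retinal, measured 1.80, 1.45 and 2.0 CPM in WT against 12.5, 12.3 and 17.5 CPM in KO (log2 fold change 3.01, SE 0.22, adjusted p = 0.00494). Dhrs3, which turns retinal back into retinol, rose from 12.2 ± 0.146 to 25.1 ± 1.92 CPM (SD, n = 3, adjusted p = 0.00954).

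Picked in the same way were the membrane-bound chemokine Cx3cl1 (log2 fold change 2.09), the interleukin-12 subunit Il12b (2.54), the chemokine Ccl17 (2.55), the costimulatory ligand Icosl (0.45), the growth factor receptor Flt3 (1.12) and the transcription factor Batf3 (1.10), all past the threshold. Ccl17 stayed near the lower end of detection, at 0.183 ± 0.0664 CPM in WT against 1.14 ± 0.464 CPM in KO (SD, n = 3). Flt3 and Batf3 belong to the dendritic cell marker list, where 2 of 14 genes were higher and none lower, with a median of 0.48. The list summed to 669 to 981 CPM in WT against 891 to 1208 CPM in KO, so the groups overlapped (exact permutation test, two-sided, p = 0.3), and none of its 14 members was at 0. Whether dendritic cell RNA takes part in these differences was not tested. Macrophage markers, 18 of 18 with counts, summed to 1851 to 2342 CPM in WT against 1995 to 3970 CPM in KO, with KO replicate 1 the highest, and 0 of 18 were called by edgeR, with 1 at an unadjusted p under 0.05 and 1 called by DESeq2.

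Other genes with large or tight differences had varied roles. Kcnk1, a potassium channel of the two-pore family, measured 0.636, 0.787 and 1.24 CPM in WT against 6.04, 9.31 and 9.74 CPM in KO (log2 fold change 3.21, SE 0.31, adjusted p = 0.00954). Nmur1, the receptor for the neuropeptide neuromedin U, rose by 3.12 and Rnf128, the ubiquitin ligase known as GRAIL, by 2.88 on the log2 scale. KO replicate 1 was the lowest KO library in these 3 genes, with 3.81 CPM of Nmur1 against 8.60 and 9.92 CPM in the other KO libraries. Scin, an actin-severing protein, rose by 2.19, the secreted protein gene Dkk3 by 2.31, Fam184b by 2.27 and the adhesion molecule Cntn1 by 2.01. Arg1, which consumes arginine, measured 0.848, 0.944 and 0.729 CPM in WT against 4.42, 5.09 and 5.0 CPM in KO (adjusted p = 0.00799).

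Some genes of stroma and smooth muscle rose. Of 13 tested stromal and endothelial markers, 5 were higher (Pdgfrb, Dcn, Col3a1, Madcam1 and Col1a2) and none lower (38.5%, against 2.08% of all genes tested). The list's median log2 fold change was 1.72. The count was 0 without WT replicate 1 or KO replicate 3, 1 without WT replicate 2 or KO replicate 2, 4 without WT replicate 3 or KO replicate 1, and 3 with limma-voom. Without the 2 libraries with Xist and Y-linked reads it was 5, and Madcam1 was not among them. The collagen gene Col3a1 measured 1.48, 0.724 and 2.44 CPM in WT against 14.5, 9.76 and 7.67 CPM in KO (log2 fold change 2.77, SE 0.44, adjusted p = 0.0337). The smooth muscle actins Actg2 and Acta2 rose by 2.57 and 2.28, from 5.08 ± 0.191 and 1.35 ± 0.560 CPM to 30.1 ± 8.65 and 6.47 ± 2.45 CPM (SD, n = 3). The whole list of 13 markers, none at 0, summed to 256 to 492 CPM in WT against 389 to 816 CPM in KO, and these ranges overlapped. Glycam1, a sulphated ligand of L-selectin made by high endothelial venules and singled out after its values were seen, had 0 counts in the 3 WT libraries and 672 in KO, at 11, 4.91 and 4.34 CPM. That was at least 188-fold higher, taking 3 counts over the WT group as the floor. Madcam1, the mucosal addressin, rose from 0.605 ± 0.119 to 1.98 ± 0.504 CPM (SD, n = 3). The part of stromal RNA in these differences was not tested.

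Some markers of rarer blood cells rose. Of 13 tested neutrophil markers 1 was higher by edgeR, Cxcr2, a chemokine receptor, at 2.40 ± 0.164 CPM in WT against 7.17 ± 2.10 CPM in KO (SD, n = 3, adjusted p = 0.0301). The list's median was 1.58, all 13 log2 fold changes were positive, and 11 genes had an unadjusted p under 0.05. DESeq2 called 8 of them higher and limma-voom 0. Kit, the receptor for stem cell factor, was the 1 called gene of 4 tested mast cell and basophil markers, at 8.91, 11.7 and 17.1 CPM in WT against 41.2, 36.8 and 40.2 CPM in KO. That list summed to 14.2 to 23.8 and 50.2 to 61.9 CPM. Among 6 tested genes of immature thymocytes 2 were higher. Dntt, the template-independent polymerase of antigen receptor rearrangement, measured 6.79, 5.79 and 6.66 CPM in WT against 18.2, 23.8 and 37.2 CPM in KO (log2 fold change 2.04, SE 0.26, adjusted p = 0.0169), and Arpp21 rose by 1.79. The 7 thymocyte markers summed to 70.2 to 82.2 and 94.8 to 138 CPM. The mast cell and thymocyte lists held 2 and 4 genes at an unadjusted p under 0.05, and DESeq2 called 2 and 3 higher. By edgeR 0 of 18 B cell, 8 plasma cell, 9 erythroid, 6 platelet, 6 gamma delta and 2 CD8 markers were called, with 1, 4, 0, 6, 4 and 2 at an unadjusted p under 0.05 and 0, 1, 0, 3, 4 and 1 called by DESeq2. Of 187 immunoglobulin variable segments tested, 7 were lower and 0 higher (3.74%, against 2.08% of all genes tested), with a median of -0.78. Immunoglobulin V, D and J segments summed to 3469, 6196 and 2954 CPM in WT against 2021, 2514 and 2890 CPM in KO. WT replicate 2 was the highest. The median of 85 T cell receptor variable segments was -0.51. Both medians are under TMM, and the T cell scaling moved the median of all genes tested to 0.53.

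Of 57 actin cytoskeleton genes, 2 were higher and none lower (3.51%), with a median log2 fold change of 0.02. Myo1f, an unconventional myosin of leukocytes, measured 48.9, 53.9 and 49.8 CPM in WT against 81.3, 76.7 and 78.2 CPM in KO (adjusted p = 0.00954). Cytoplasmic gamma actin, Actg1, rose from 264 ± 9.85 to 373 ± 15.5 CPM (SD, n = 3, adjusted p = 0.0193). Of 37 trafficking receptors, 3 were higher (Icam1, Itgae and Ccr1) and 1 was lower (Itga6), 10.8% in all, with a median of 0.04. Icam1, the ligand of the integrin LFA-1, rose from 85.6 ± 5.46 to 128 ± 5.78 CPM (SD, n = 3), and Nfkb2, the p100 precursor of the noncanonical NF-kB pathway, from 166 ± 14 to 269 ± 12.1 CPM (SD, n = 3). Nfkb2 was singled out after its values were seen.

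The remaining lists held few calls. In the lists of interleukin-2, interleukin-7 and STAT5 (22 genes), cell death and survival (39), proliferation (41), interferon response (56), heat shock (19), nuclear oxidative phosphorylation (47) and cytosolic ribosomal proteins (53), 0 genes passed in either direction by edgeR. At an unadjusted p under 0.05 those lists held 6, 17, 6, 18, 7, 2 and 0 genes. DESeq2 called 1 higher and 4 lower, 2 and 4, 2 and 0, 5 and 3, 4 and 0, 0 and 0, and 0 and 0. Of 31 amino acid and unfolded protein stress genes 2 were higher, the stress sensor Ern1 by 0.66 and the cystine transporter Slc7a11 by 1.77 on the log2 scale. The lactate transporter Slc16a3, 1 of 22 glycolysis genes, rose by 0.73, and the sterol exporter Abcg1, 1 of 32 cholesterol and lipid genes, by 0.40.

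The genes of the next sentences were chosen after seeing their values. The p53 targets Cdkn1a and Phlda3 rose by 1.54 and 1.65 on the log2 scale, to 10.6 ± 1.68 and 8.60 ± 0.936 CPM (SD, n = 3). Mdm2, also a p53 target, measured 73.1 ± 0.504 CPM in WT against 60.1 ± 1.57 CPM in KO (SD, n = 3, adjusted p = 0.0425), a fall that turned with the T cell scaling. The RNA-binding protein genes Cirbp, Rbm25 and Hnrnpdl fell by 0.45, 0.39 and 0.51 on the log2 scale under TMM, and all 3 turned with the T cell scaling.

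**Figure D4:**
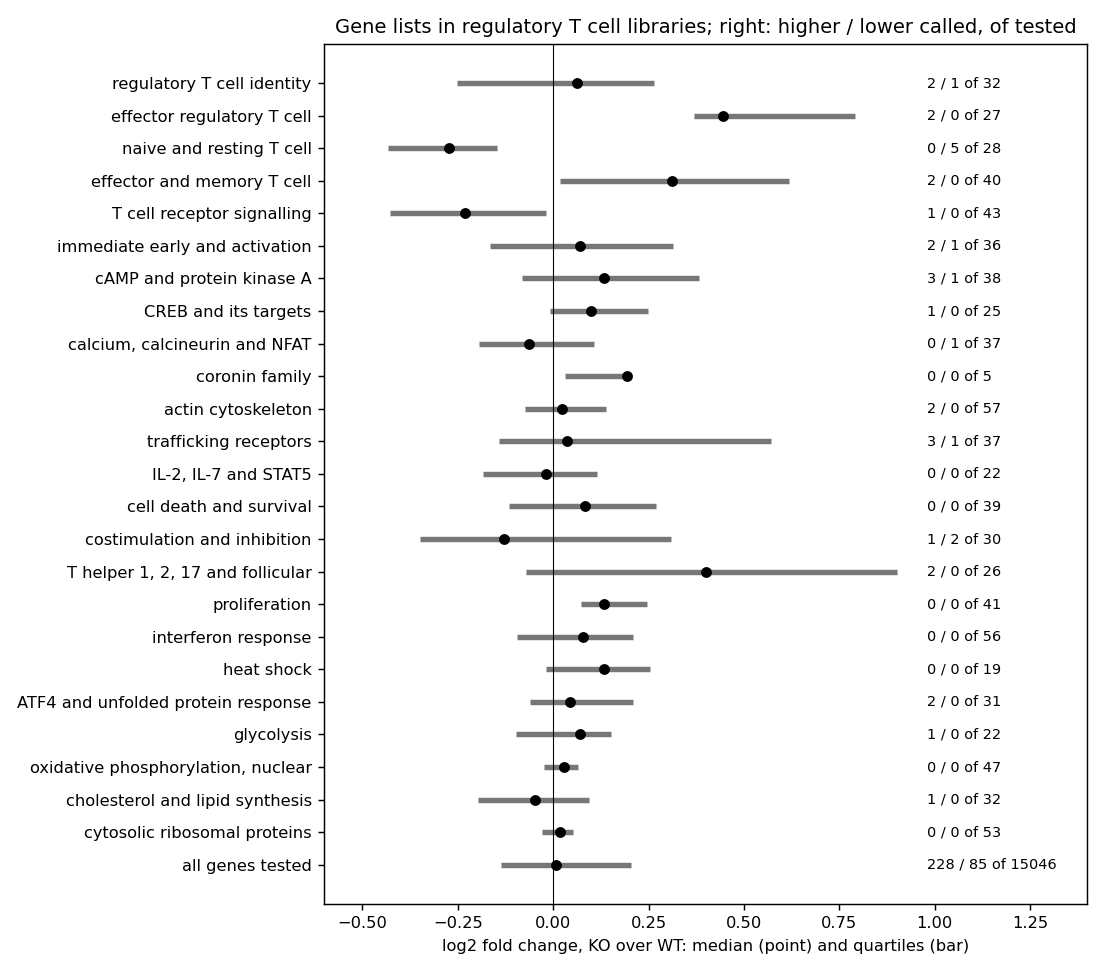
Median (point) and quartiles (bar) of the log2 fold change, KO over WT, for the tested members of each pathway list (marker lists of other cell types are not drawn), with the number called higher and lower at the right. Among the lists drawn, effector regulatory genes have the highest median (0.44) and naive and resting T cell genes the lowest (-0.27), against 0.01 for all genes tested.

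Near Coro1a, 133 tested genes lay within 5 Mb. Of these, 1 was higher and 4 were lower, 3.76%, against 2.07% elsewhere in the genome. Coro1a itself was left out of these counts. The 3 called genes with the smallest p were AI467606, an uncharacterised gene (chromosome 7, 127091359 onward on GRCm38), Mvp, the major vault protein, and Il21r, the interleukin-21 receptor. Their log2 fold changes were -1.02, 0.52 and -0.57, and the calls of AI467606 and Il21r were lost with the T cell scaling. All 3 had the same sign in conventional cells, at -1.21, 0.41 and -0.73, each past its threshold.

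A pair of neighbouring genes rose together. Tmem176a measured 29.6, 31.8 and 32.2 CPM in WT against 82.3, 77.9 and 97.9 CPM in KO, a log2 change of 1.46 (SE 0.10, adjusted p = 0.00494), the second smallest p of the comparison. Tmem176b, beside it on chromosome 6 and read from the opposite strand, measured 42.8, 52.7 and 55.9 CPM in WT against 135, 109 and 143 CPM in KO, a log2 change of 1.35 (SE 0.13, adjusted p = 0.00954). Both encode membrane proteins of antigen-presenting cells and some T cells. Their starts lie head to head, so that the RefSeq promoter windows (250 bases before to 50 after a start) overlap. Promoter windows were found for 181 of the 228 higher genes and searched, after the values were seen, on both strands for a sequence bound by NF-kB, GGG and TTTCC with 2 bases of any kind between them. It was present in 12 of these 181 genes (6.63%), in 1 of 62 lower genes (1.61%) and in 232 of 10883 genes tested (2.13%). Tmem176a and Tmem176b share a single match and count as 2 of the 12. The cyclic AMP response element TGACGTCA was present in 3 of 181 higher genes (1.66%) and 3.44% of genes tested, and the core GCGTG bound by the aryl hydrocarbon receptor in 43.1% and 53.9%. A match is a description of the sequence and shows no binding.

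The 250 bases before the start are printed for 3 higher genes named above, with the NF-kB letters in capitals on either strand. They show the Tmem176a window, which overlaps that of Tmem176b in part, a gene of the NF-kB family itself and the endothelial gene Madcam1, whose window holds 2 matches. Coordinates are GRCm38.p6, plus strand, in order chr6:48841233-48841482, chr19:46304487-46304736 and chr10:79664309-79664558.
Tmem176a: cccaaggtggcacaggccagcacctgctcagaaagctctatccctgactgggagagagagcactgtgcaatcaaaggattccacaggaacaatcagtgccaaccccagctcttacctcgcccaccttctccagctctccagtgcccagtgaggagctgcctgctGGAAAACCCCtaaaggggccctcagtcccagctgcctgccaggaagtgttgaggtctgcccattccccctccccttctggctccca
Nfkb2: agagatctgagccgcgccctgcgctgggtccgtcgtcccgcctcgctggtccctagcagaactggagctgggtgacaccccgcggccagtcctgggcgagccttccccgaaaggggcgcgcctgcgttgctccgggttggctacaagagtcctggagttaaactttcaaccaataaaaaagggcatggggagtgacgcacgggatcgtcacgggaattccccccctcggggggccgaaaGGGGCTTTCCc
Madcam1: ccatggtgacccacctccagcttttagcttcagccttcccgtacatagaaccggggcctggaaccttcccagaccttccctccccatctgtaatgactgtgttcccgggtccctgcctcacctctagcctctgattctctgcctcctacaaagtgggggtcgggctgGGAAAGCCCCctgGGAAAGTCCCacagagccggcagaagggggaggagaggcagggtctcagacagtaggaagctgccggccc

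The effect was then set against that in conventional T cells, where Coro1a was also lost. In a fit of all 12 libraries, 48.7% of 15922 genes were called between KO and WT conventional libraries. Of the 228 genes higher in regulatory cells, 169 were called higher in conventional cells and 5 lower. Of the 85 lower genes, 63 were called lower and 8 higher there. The difference between both effects, tested directly, was called for 3393 genes (21.3%), 1411 with the larger and 1982 with the smaller log2 fold change in regulatory cells. With scaling to the 6 T cell genes these counts were 30 and 921. It was called for 117 of the 313 genes. The median log2 fold change of the 228 higher genes was 1.45 in regulatory and 1.76 in conventional cells. Of the 228, 123 (53.9%) stood under 1 CPM in WT conventional libraries, against 8 of the 85 lower genes (9.41%) and 22.7% of all genes tested.

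**Figure D5:**
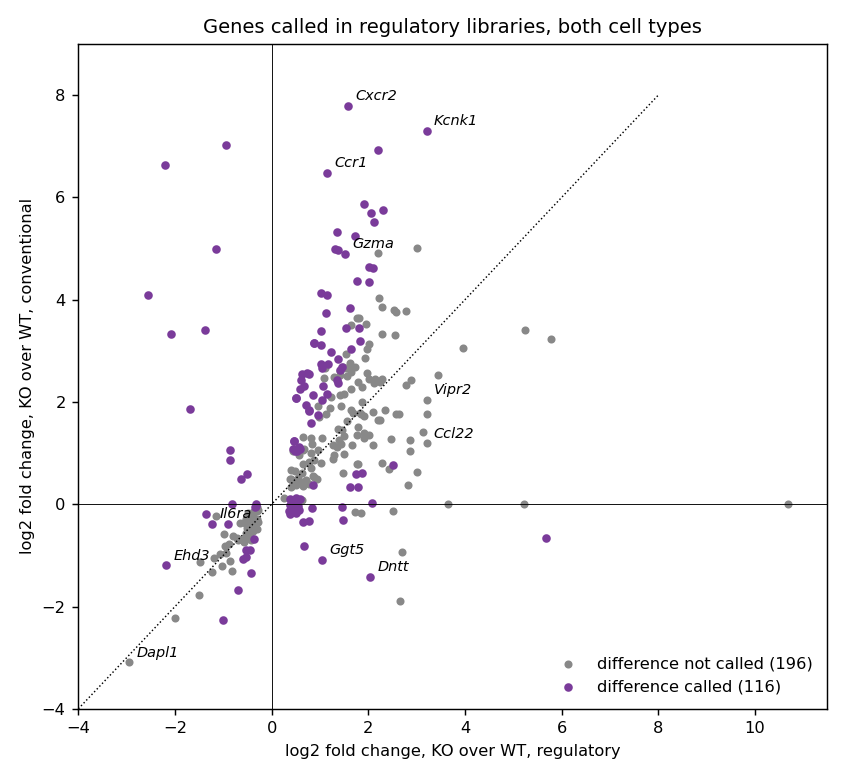
log2 fold change (KO over WT) in regulatory (x) and conventional (y) cells for genes called in the regulatory comparison, Coro1a left out, coloured by whether the difference of effects was called. The dotted line marks equal effects, and genes with no counts in conventional libraries lie at 0 on the y axis. Ccr1 and Cxcr2 lie far above the line, and Dntt and Ggt5 have opposite signs in the 2 cell types.

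The genes with the smallest p for the difference were the chemokine receptor Ccr1, Ggt5, Prr5l, Dntt, Mcemp1, Cxcr2, Slc16a3 and Fam129a. Ccr1 rose from 5.43 ± 0.686 to 12 ± 1.75 CPM (SD, n = 3) in regulatory cells, and in conventional cells from a mean of 0.156 to 16.3 CPM, so that the log2 fold changes were 1.14 and 6.48 (difference -5.35, adjusted p = 8.54e-05). The gamma-glutamyltransferase Ggt5 rose by 1.04 in regulatory cells, and its log2 fold change in conventional cells was -1.08 (difference 2.11, adjusted p = 0.000114). Dntt likewise rose in regulatory cells, by 2.04, against a log2 change of -1.42 in conventional cells (difference 3.46, adjusted p = 0.000121). In Mcemp1, Prr5l, Slc16a3 and Fam129a both effects were positive and the one in conventional cells was larger. Marker sums in conventional libraries (CPM, TMM over all 12 libraries) also differed. Neutrophil markers averaged 12.5 CPM in WT against 500 CPM in KO, NK cell markers 71.6 against 477 CPM and macrophage markers 783 against 3896 CPM. Of the cell type lists only CD8 (20.7 against 10.6 CPM) and stroma (271 against 241 CPM) were lower in KO. The part of these shifts in the differences was not tested.

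Il6ra showed the larger fall in regulatory cells, -1.23 against -0.38 (difference -0.85, adjusted p = 0.000619), and Ehd3 likewise, -2.18 against -1.20 (difference -0.99, adjusted p = 0.0497). Izumo1r fell in regulatory cells, while its mean in conventional cells was 132 CPM in WT against 149 CPM in KO (adjusted p of the effect 0.995, of the difference 0.0392). For Vipr2 (3.21 and 2.05), Vipr1 (-1.48 and -1.12), Ccl22 (3.21 and 1.2) and Dapl1 (-2.95 and -3.09) the difference missed the threshold, with adjusted p-values of 0.107, 0.296, 0.0925 and 0.882. Ccl22 stood at a mean of 0.167 CPM in WT conventional libraries, Dapl1 at 74.1 CPM and Vipr1 at 272.5 CPM.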

How the data were processed

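Deposited values were raw read counts per Ensembl gene, made by the authors with STAR on GRCm38, per the submitters' processing notes, and counted by reverse strand, per the file's name. The annotation release is not given in the sources used here. The table held 45706 genes and 4 tallies of unassigned reads, which were left out. Symbols and coordinates came from GENCODE vM21 for 45143 genes, at least 99.9% of gene counts in each library.

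Counts were tested in R 4.3.3 with edgeR 4.0.16 on the 6 regulatory libraries (filterByExpr, minimum count 10 and total 15, TMM factors, quasi-likelihood F test, two-sided, Benjamini-Hochberg adjustment, threshold 0.05). Standard errors were obtained as the absolute log2 fold change over the square root of the F statistic. The difference of effects was fitted on all 12 libraries. The biological coefficient of variation was 0.181. Sums over a list were compared with an exact permutation test. Library totals of 19686870 to 33404302 counts limit the precision of genes under about 1 CPM. The procedure was tested on simulated data. Figures used Python 3.11.15 and matplotlib 3.10.9.

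Genes were named by rule, and the text stopped early within some parts: Coro1a, then, among called genes, the 12 most increased and the 12 most decreased on the log2 scale (at least 5 CPM in the higher group, more than 3 counts in the lower, no overlap), then the 10 others with the smallest p, up to 4 members per list, up to 3 called genes within 5 Mb of Coro1a, 6 lineage genes, and up to 8 genes called also for the difference of effects. Predicted genes, pseudogenes and receptor segments were passed over. Genes said to be singled out, the promoter search and the choice of promoters printed came after the values were seen. The comparison, its gene lists and its settings were chosen with earlier results of these data known. No list was given a set test. Alternatives were other scaling factors (RLE, upper quartile, 6 T cell genes), DESeq2 1.42.0, limma-voom 3.58.1, no filter, a filter at 5 CPM, a replicate block, each library left out, both libraries with Xist and Y-linked reads left out, all 12 libraries, a 1.5-fold minimum and a threshold of 0.01. Some genes the rule chose are left out of the text.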

Additional observations from a re-analysis of the deposited data

Results flagged for a closer look

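The knockout effect differed between regulatory and conventional T cells for 46 of the 100 genes named for their regulatory knockout effect. The difference itself was tested in edgeR with Benjamini-Hochberg adjustment. It was called for 3393 of all 15922 genes tested (21.3%), and for 117 of the 313 genes called in regulatory cells. Some genes were named because this difference was called, so their part of the 46 was set by that choice. Values are the log2 fold change in regulatory minus that in conventional cells. A negative value means the lower log2 fold change in regulatory cells. It can be a smaller rise, a larger fall or a fall against a rise.

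Genes known from neutrophils, NK cells and other myeloid or killer cells stood at Cxcr2 (-6.21), Ccr1 (-5.35), Mcemp1 (-3.97), Klra4 (-3.66) and Gzma (-3.38). The marker sums of such cells were higher in KO than in WT conventional libraries, as given above, and their part in these values was not tested. Interleukin-1 and dendritic cell genes stood at Il1rn (-3.70), Il1r2 (-3.52), Flt3 (-2.63), Cd80 (-2.28) and Ebi3 (-1.83). Among lineage and activation genes the values were Ikzf2 (-2.18), Ctla4 (-1.36), Il2ra (-1.04), Itgae (-1.74), Bhlhe40 (-1.79) and Ahr (-0.79).

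For surface, channel and signalling genes they were Kcnk1 (-4.10), Dkk3 (-3.44), Cntn1 (-2.34), Prr5l (-2.93), Pde7b (-1.63), Pde5a (-1.01), Tmem176a (-1.22), Tmem176b (-1.07) and Icam1 (-0.50). Kcnk1, Dkk3 and Cntn1 were almost absent from WT conventional libraries, at means of 0.0104, 0.0104 and 0.0102 CPM. They reached 2.56, 0.867 and 0.324 CPM in KO conventional libraries, against 8.36, 6.89 and 16.9 CPM in KO regulatory ones. Their log2 changes in conventional cells therefore rest on values near the floor. Cytoskeletal, metabolic and p53 genes gave Myo1f (-1.93), Anxa2 (-1.73), Fam129a (-1.67), Slc16a3 (-1.83), Cdkn1a (-1.92), Phlda3 (-1.39) and Dhrs3 (-0.997). Of the coronins, Coro2b (-1.39) and Coro1a (-0.89) were negative. Genes lower in KO regulatory cells were Ehd3 (-0.99), Il6ra (-0.85), Izumo1r (-0.82), Slc35g1 (-0.53) and Dnah7a (-1.92).

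Positive values, the higher log2 fold change in regulatory cells, were found for Dntt (3.46), Ggt5 (2.11), Arg1 (1.74), Arpp21 (1.46), Itga6 (0.46), Rcan3 (0.38) and Actg1 (0.37). Dntt and Ggt5 rose in regulatory and fell in conventional cells. Arpp21 and Dntt are both immature thymocyte markers.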

How the results depend on the processing

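The counts of genes higher and lower in KO regulatory cells (228 and 85) moved by over 1.5 times under most alternatives, and the cause was not tested. Scaling to 6 T cell genes gave 514 and 17, and the counts were 720 and 516 with DESeq2, 378 and 175 without a filter (24847 genes tested), 140 and 72 at a mean of at least 5 CPM (10612 tested), 669 and 369 without the 2 libraries with Xist and Y-linked reads, and 638 and 608 with all 12 libraries, where 298 of the 313 were called again. A 1.5-fold minimum left 29 and 3 and a threshold of 0.01 left 19 and 5, by construction. Leaving out 1 library gave 0 to 209 higher and 1 to 133 lower genes. RLE and upper-quartile factors and limma-voom (177 and 61) stayed within 1.5 times. Same-numbered libraries did not deviate together (correlations of -0.16, 0.21 and -0.59). With 3 libraries per group this cannot show whether the numbers pair the samples, and the labels do not say. WT replicate 3 deviated with KO replicate 1 (0.63), both holding Xist and Y-linked reads, and WT replicate 2 with KO replicate 3 (0.50). With the replicate number as a block, 3 genes were higher and 1 lower.

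For the difference of effects, 1411 genes had the larger and 1982 the smaller signed log2 fold change in regulatory cells. The counts were 932 and 2123 with upper-quartile factors, 30 and 921 after scaling to T cell genes, 709 and 1651 at 5 CPM, 489 and 936 at a threshold of 0.01, and 1064 and 1689 with the replicate block. Leaving out 1 regulatory library gave 665 to 1617 and 1602 to 2176.

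Directions turned with the T cell scaling for Klf3 (0.0256), Rcan3 (0.00984), Cd84 (0.22), Il2ra (0.32), Ctla4 (0.22), Cd4 (0.27), Cd3e (0.10), Cirbp (0.0785), Rbm25 (0.14), Hnrnpdl (0.0184) and Mdm2 (0.24), and for Ikzf2 without KO replicate 2 (-0.0824). No other gene named for its regulatory knockout effect turned under any setting run. Another 20 named genes kept their direction with the T cell scaling and lost their call, Il6ra, Izumo1r, Slamf6 and Vipr1 among them. Of the higher genes these were Abcg1, Dok1 and Icosl. With all 12 libraries Batf3, Bhlhe40, Flt3, Icosl and Myo1f missed the threshold. Without WT replicate 1, 91 named genes lost their call. Low counts limit, among others, Ccl17, Dapl1, Il12b, Glycam1, Madcam1, Dcn, Vipr2, Slc7a11, Arg1, Nmur1, Kcnk1, Klra4 and Pde7b. Vipr2 had 58 counts over the WT regulatory libraries together.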
